A study of Mus musculus with 16 samples.

Results

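The 39 genes described here encode nuclear subunits of respiratory complexes II to V. They were chosen by name, as the rows of the deposited count table whose Ensembl mouse IDs carry the subunit symbols in GENCODE M21, with the older Atp5 symbols. All 39 were found among the 55573 gene IDs of the table: 4 subunits of complex II, 9 of complex III, 11 of complex IV and 15 of complex V. The rule goes by gene name and uses no measured value.

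RNA sequencing covered 16 libraries of mouse cerebral cortex in 4 groups of 4. Aifm1-KI carries a deletion of arginine 200 (R200 del) in Aifm1, and Aifm1-WT are its wild-type littermates. Hq-mut is Harlequin, a mutation of the same gene, kept in the labels as the stock B6CBACa Aw-J/A-Aifm1Hq/J, and Hq-WT are its wild-type littermates. The labels give C57BL/6 as the strain of every sample, an age of around postnatal day 180 and no treatment for all 4 groups. Whether every library comes from its own animal is not stated; the p-values therefore reflect library-to-library spread, which may be technical.

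Oxidative phosphorylation takes place in the inner mitochondrial membrane. Complex II (succinate dehydrogenase) passes electrons from succinate to coenzyme Q, complex III passes them on to cytochrome c, and complex IV passes them to oxygen. Complex V (ATP synthase) uses the proton gradient that complexes I, III and IV build to make ATP. Complex II is encoded in the nucleus alone, whereas complexes III, IV and V combine nuclear subunits with ones encoded in mitochondrial DNA. Neurons of the cortex depend on this pathway for ion pumping and synaptic transmission. The product of Aifm1, apoptosis-inducing factor (AIF), sits in the intermembrane space and is needed to build the respiratory chain. The counts measure mRNA only.

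Aifm1 itself had 3.77, 2.23, 3.29 and 4.01 CPM (counts scaled to library size with TMM factors) in Hq-mut libraries 1 to 4, against 23.1, 25.8, 23.5 and 23.4 CPM in Hq-WT. This gave -2.87 on the log2 scale (SE 0.19), which passed (edgeR adjusted p = 0.000348). Aifm1-KI had 21.7, 24.6, 25.8 and 22.8 CPM, against 21.5, 22.8, 22.9 and 23.5 CPM in Aifm1-WT. That comparison, at 0.08 (SE 0.07), did not pass (edgeR adjusted p = 0.679), and total Aifm1 counts do not check a deletion of 1 codon. Total counts ran from 10671580 to 32551594 per library. Excitatory neuron markers of cortex were counted in all libraries (10 of 10), at a mean log2 CPM of 6.02 in Aifm1-KI 2 and 6.80 to 7.44 elsewhere.

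Promoters of respiratory genes are known for a few shared motifs. RefSeq promoter windows on GRCm38.p6, each with 250 bases before and 50 after the gene's start, were matched for 31 of the 39 genes. The palindromic core of the NRF-1 site, CGCATGCG, lay in 7 of them (22.6%), against 2.07% of 27025 genes with a window. NRF-1 is a transcription factor known for binding promoters of respiratory genes. The core of the site of ETS factors such as GABP (also called NRF-2), CCGGAAG or CTTCCGG on the other strand, lay in 12 (38.7%), against 9.93% of all genes. The YY1 motif AAGATGGCG or CGCCATCTT was found in 2 (6.45%), those of Atp5j and Atp5j2, against 1.64%. Its first letters can overlap the end of the ETS core, which did not occur in these windows. An NRF-1 core and an ETS core stood together in 5 windows (16.1%), those of Atp5j, Atp5k, Atp5l, Cox6a1 and Uqcr11, against 0.407% of all genes. These matches describe letters in the windows and are no evidence of binding.

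The stretches below are shown because each carries one of these cores outside the transcribed span in GENCODE M21; capitals mark the cores. They lie on the minus strand at chr9:50603874-50603910 (Sdhd), chr10:80406866-80406902 (Uqcr11), chr5:115349097-115349134 (Cox6a1), chr2:174464182-174464218 (Atp5e) and chr9:44920933-44920992 (Atp5l).
Sdhd, ETS core: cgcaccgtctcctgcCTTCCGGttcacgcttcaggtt
Uqcr11, ETS core: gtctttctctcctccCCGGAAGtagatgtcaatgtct
Cox6a1, NRF-1 core: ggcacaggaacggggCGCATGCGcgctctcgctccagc
Atp5e, ETS core: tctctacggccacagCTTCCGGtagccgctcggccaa
Atp5l, NRF-1 core and ETS core: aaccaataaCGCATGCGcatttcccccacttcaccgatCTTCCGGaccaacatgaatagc

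Small subunit genes often have processed pseudogenes, and reads that fit several places are easily lost in counting. Every 51-base window, the length of the reads, was cut from each gene's principal mRNA and looked for in the transcripts of other genes. No window was shared for 18 genes and at least 1 was for 21. In 5 genes over 40% of the windows were shared: Atp5g2 (87.4%), Atp5l (68.4%), Cox7c (52.9%), Atp5h (46.8%) and Uqcrb (42.5%). Their levels are uncertain for that reason. The coding windows below are shown because the identical 51 bases occur in a pseudogene on another chromosome: Gm10175 on chromosome 7 for Atp5g2, Gm10221 on chromosome 5 for Atp5l, and Gm10012 on chromosome 17 for Cox7c. In Atp5g2 and Atp5l all 388 and all 259 coding windows were shared with that 1 pseudogene (100% each), and in Cox7c 58 of 139 (41.7%).
Atp5g2: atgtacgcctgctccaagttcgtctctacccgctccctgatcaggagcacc
Atp5l: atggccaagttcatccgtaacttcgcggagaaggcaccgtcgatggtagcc
Cox7c: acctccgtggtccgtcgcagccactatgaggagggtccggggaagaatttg

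Levels can be compared between genes only per length, here as TPM over the annotated exons, averaged over 16 libraries. Cox8a, a small subunit of complex IV, had the highest level, at 899 ± 180 TPM (SD, n = 16). Cox6a1 (778 ± 142 TPM), Atp5a1 (771 ± 68.4 TPM), Cox4i1 (730 ± 136 TPM) and Atp5b (685 ± 73.4 TPM) came next, and neighbours in this order lie within each other's SD. The means and SDs include Hq-mut 2 and Hq-WT 2, which stood high as described below. Without them, Cox8a averaged 842 TPM, Atp5a1 756 TPM, Cox6a1 736 TPM, Cox4i1 685 TPM and Atp5b 664 TPM. With the principal transcript's length in place of all exons, and over 16 libraries, Atp5b ranked 1 and Cox8a 3. The low end held Atp5g1, Cox7c, Atp5l and Atp5g2 at 12.3 ± 1.20, 7.76 ± 1.81, 4.20 ± 0.910 and 1.85 ± 0.464 TPM. Of these, 3 are the genes with most windows in pseudogenes. The fourth, Atp5g1, was scaled by 4912 exon bases or a principal transcript of 4715 bases. Those of Atp5g2 and Atp5g3 have 731 and 723 bases, so the low TPM of Atp5g1 depends on its annotated length. By transcript length Atp5g2 was still lowest (3.12 TPM), but Atp5g1 (9.44 TPM) lay below Cox7c (12.01 TPM) and Atp5l (36.7 TPM). Between these extremes, the core proteins Uqcrc1 and Uqcrc2 of complex III stood at 135 ± 12.3 and 182 ± 20.3 TPM, and the flavoprotein Sdha of complex II at 310 ± 19.5 TPM.

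Alternative subunits of complex IV, which replace members in other tissues or conditions, had lower levels than the members they replace. Cox4i2, a form of Cox4 known from lung, had 4.46 ± 0.990 TPM. Cox6a2 and Cox7a1, the forms of heart and muscle, had 16.6 ± 4.24 and 7.21 ± 1.65 TPM. Cox6b2, known from testis, had 3.26 ± 1.67 TPM, and Cox8c had 0 counts in all 16 libraries.

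Libraries Hq-mut 2 and Hq-WT 2 stood apart, and Harlequin results below are therefore given with and without them. Hq-mut 2 was the highest of the 16 libraries for 36 of the 39 genes, and Hq-WT 2 came second after it for 35. The subunit genes took 0.834% of all counts in Hq-mut 2 and 0.655% in Hq-WT 2, against 0.417% to 0.482% in the other 14 libraries. Relative to the median of those 14, the members' median was 1.08 higher on the log2 scale in Hq-mut 2 and 0.65 higher in Hq-WT 2. By complex, it was 0.88, 1.28, 1.26 and 0.99 in Hq-mut 2 for complexes II, III, IV and V, and 0.59, 0.75, 0.69 and 0.64 in Hq-WT 2.

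**Figure D1:**
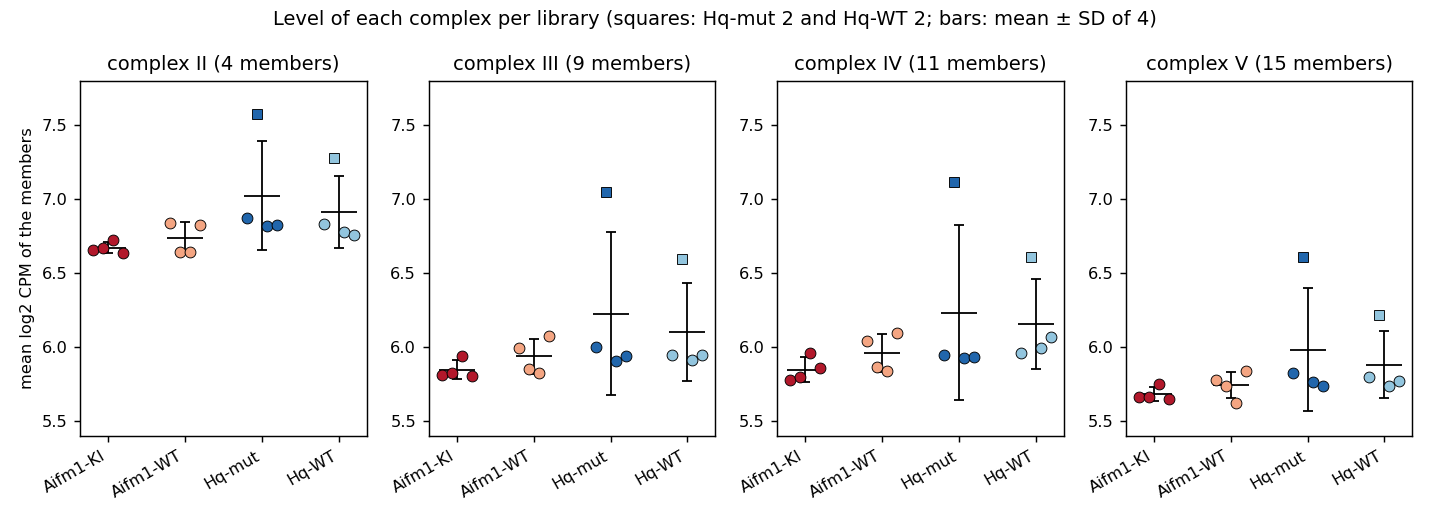
Mean log2 CPM of the members of complexes II, III, IV and V (y axis) in each library of the 4 groups (x axis); points are libraries, squares are Hq-mut 2 and Hq-WT 2, and bars are the mean ± SD of 4. The squares stand above all circles in each panel, at 7.58 and 7.28 for complex II and at 7.12 and 6.61 for complex IV.

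The same 2 libraries were high for short transcripts in general. Over the 729 other genes with a principal mRNA of up to 1000 bases, the median deviation was 0.88 in Hq-mut 2 and 0.52 in Hq-WT 2, against -0.07 to 0.08 in the other 14 libraries. In the same order it was 0.51 and 0.31 over 2262 genes of 1000 to 2000 bases. Over 5010 genes of 2000 to 4000 bases it was 0.15 and 0.11. Over the 4399 genes above 4000 bases it was -0.23 and -0.12 in these 2 libraries. Of the subunit genes, 23 of 39 have an mRNA of up to 1000 bases: 0 of 4 in complex II, 4 of 9 in complex III, 10 of 11 in complex IV and 9 of 15 in complex V. Cytosolic ribosomal proteins, another group with short mRNAs, had a mean log2 CPM of 3.72 in Hq-mut 2 and 3.23 in Hq-WT 2, against 2.54 to 2.98 elsewhere. The part of transcript length in the levels of the subunits was not tested as a cause. The summed CPM of choroid plexus markers was 5504 in Hq-WT 2, 2867 in Aifm1-KI 2 and 380 in both Hq-mut 2 and Aifm1-WT 4. It ran from 6.64 to 130 in the other libraries. Mean log2 CPM over members was 6.53 in Hq-WT 2, 5.84 in Aifm1-KI 2, 6.95 in Hq-mut 2 and 6.07 in Aifm1-WT 4. The part of choroid plexus tissue in the levels was not tested. Striatal markers summed to 959 CPM in Hq-mut 3, against 319 to 420 CPM in the other Hq-mut and 342 to 369 CPM in Hq-WT libraries.

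**Figure D2:**
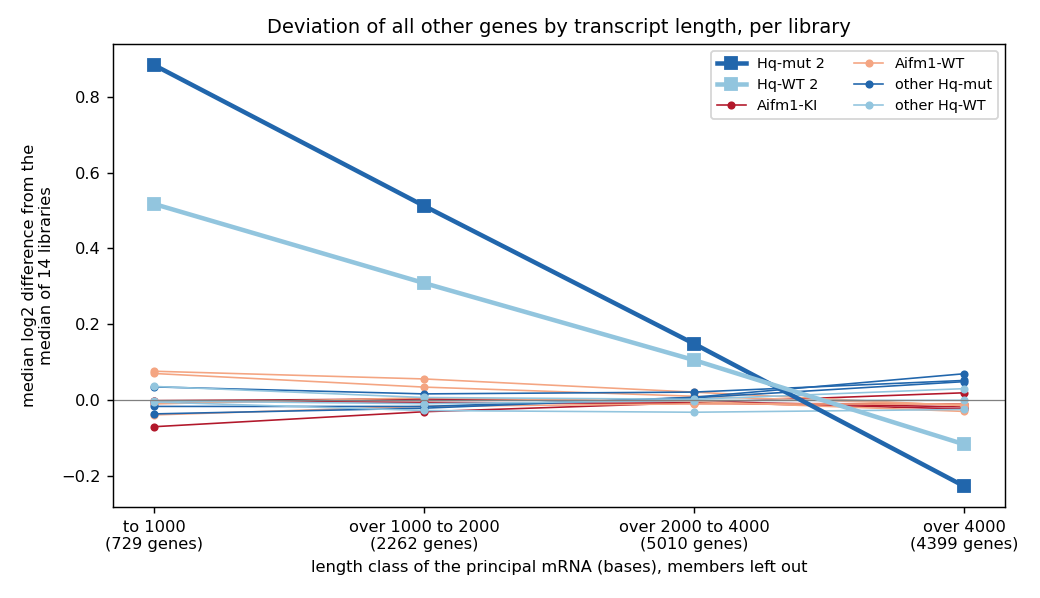
Median log2 difference from the median of 14 libraries (y axis) for all genes other than the 39 members, in 4 classes of principal mRNA length (x axis), with a line per library. Hq-mut 2 and Hq-WT 2 run from 0.88 and 0.52 in the class up to 1000 bases to -0.23 and -0.12 above 4000 bases, and the other 14 libraries stay between -0.07 and 0.08.

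Whether the arginine 200 deletion changes subunit mRNAs was asked by setting Aifm1-KI against Aifm1-WT. Subunit genes stood slightly lower in Aifm1-KI, by a median log2 fold change of -0.07 (range -0.14 to 0.15), and 37 of 39 had a negative value; over all 18383 genes tested 48.4% had one and the median was 0.01. Among tested genes with an mRNA of up to 1000 bases, 1154 of 2092 had a negative value, with a median of -0.02. No member passed an edgeR adjusted p under 0.05, and neither did any other gene (0 of 18383, 0%). At an unadjusted p under 0.05 the count was 0 of 39 members, against 11.4% of all genes. DESeq2 called 82 genes and limma-voom 0, none of them a member. Libraries of the groups overlapped for all 39 genes, while 2.03% of all genes had every Aifm1-KI library above Aifm1-WT and 2.83% every one below.

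By complex, the medians were -0.04 for complex II, -0.07 for complex III, -0.11 for complex IV and -0.07 for complex V. All 4 members of complex II, 8 of 9 of complex III, all 11 of complex IV and 14 of 15 of complex V had negative values. The exceptions, Uqcrb (0.00, SE 0.10) and Atp5g2 (0.15, SE 0.26), are among the genes with many windows in pseudogenes. The 95% interval lay within 0.5 of 0 on the log2 scale for 37 of 39 genes, and the remaining 2 were Atp5g2 and Cox7c. For those 37 genes a change of that size lies outside the interval.

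In complex II the smallest p was that of Sdhd, a membrane anchor of succinate dehydrogenase (ENSMUSG00000000171, chr9:50596357-50603812, minus strand, on GRCm38 in GENCODE M21, as for all genes below). Sdhd had 59.8, 58.7, 58.8 and 54.2 CPM in Aifm1-KI, against 70.9, 56.0, 61.1 and 68.5 CPM in Aifm1-WT. The groups overlapped through Aifm1-WT 2, at -0.13 on the log2 scale (SE 0.08, edgeR adjusted p = 0.514).

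Uqcrc1, a core protein of complex III (ENSMUSG00000025651, chr9:108936633-108949623, plus strand), had 134.6, 126.9, 145.8 and 130.2 CPM in Aifm1-KI, against 151.8, 145.2, 134.3 and 165.9 CPM in Aifm1-WT. Aifm1-KI 1 and 3 reached into the wild-type range. Aifm1-KI 2 and 4 lay below it, and these are the libraries of the group with the highest striatal markers, given below. Its log2 fold change of -0.14 (SE 0.07) had the smallest p of the 39 genes (edgeR adjusted p = 0.487). Over 10 alternative fits, apart from those leaving out 1 library, it ran from -0.15 to -0.05.

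For complex IV the rule gave Cox4i1, the regulatory subunit that binds ATP (ENSMUSG00000031818, chr8:120668222-120674207, plus strand). Aifm1-KI had 265.5, 260.4, 288.6 and 257.9 CPM of Cox4i1, against 307.1, 274.4, 275.1 and 321.4 CPM in Aifm1-WT. Of these, only Aifm1-KI 3 reached into the wild-type range, at -0.12 on the log2 scale (SE 0.07, edgeR adjusted p = 0.507). Emc8 shares 9.94% of its exon bases.

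Atp5o of complex V, the OSCP subunit that links the catalytic head to the peripheral stalk (ENSMUSG00000022956, chr16:91925214-91931687, minus strand), had 38.5, 42.0, 42.9 and 38.9 CPM in Aifm1-KI, against 43.9, 42.7, 42.0 and 47.7 CPM in Aifm1-WT. Values of Aifm1-KI 2 and 3 lay within the wild-type range. At -0.11 (SE 0.06) Atp5o did not pass (edgeR adjusted p = 0.524), and 35.6% of its exon bases lie opposite other genes, whose reads cannot be told apart without a stated strand setting.

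Summed striatal markers (10 of 10 counted) ran from 322 to 710 CPM in Aifm1-KI, with Aifm1-KI 2 and 4 highest, against 283 to 339 CPM in Aifm1-WT. Without these 2 libraries the members' median was -0.06, with 32 of 39 negative. Adding the striatal markers' mean level to the model gave a median of -0.03 and 25 of 39 negative values. In bulk tissue, fewer cells of a type and less RNA per cell cannot be told apart. The part of striatal tissue in the values was not tested. Aifm1-KI 3 had the highest levels of its group, so leaving it out lowers the group's mean by construction. Without it, 9 of 39 members (23.1%) had an unadjusted p under 0.05, all negative. Of all genes in that fit, 20.5% had one in either direction and 9.76% in that direction. Still no member passed (lowest edgeR adjusted p 0.126), while 0.244% of all genes did.

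**Figure D3:**
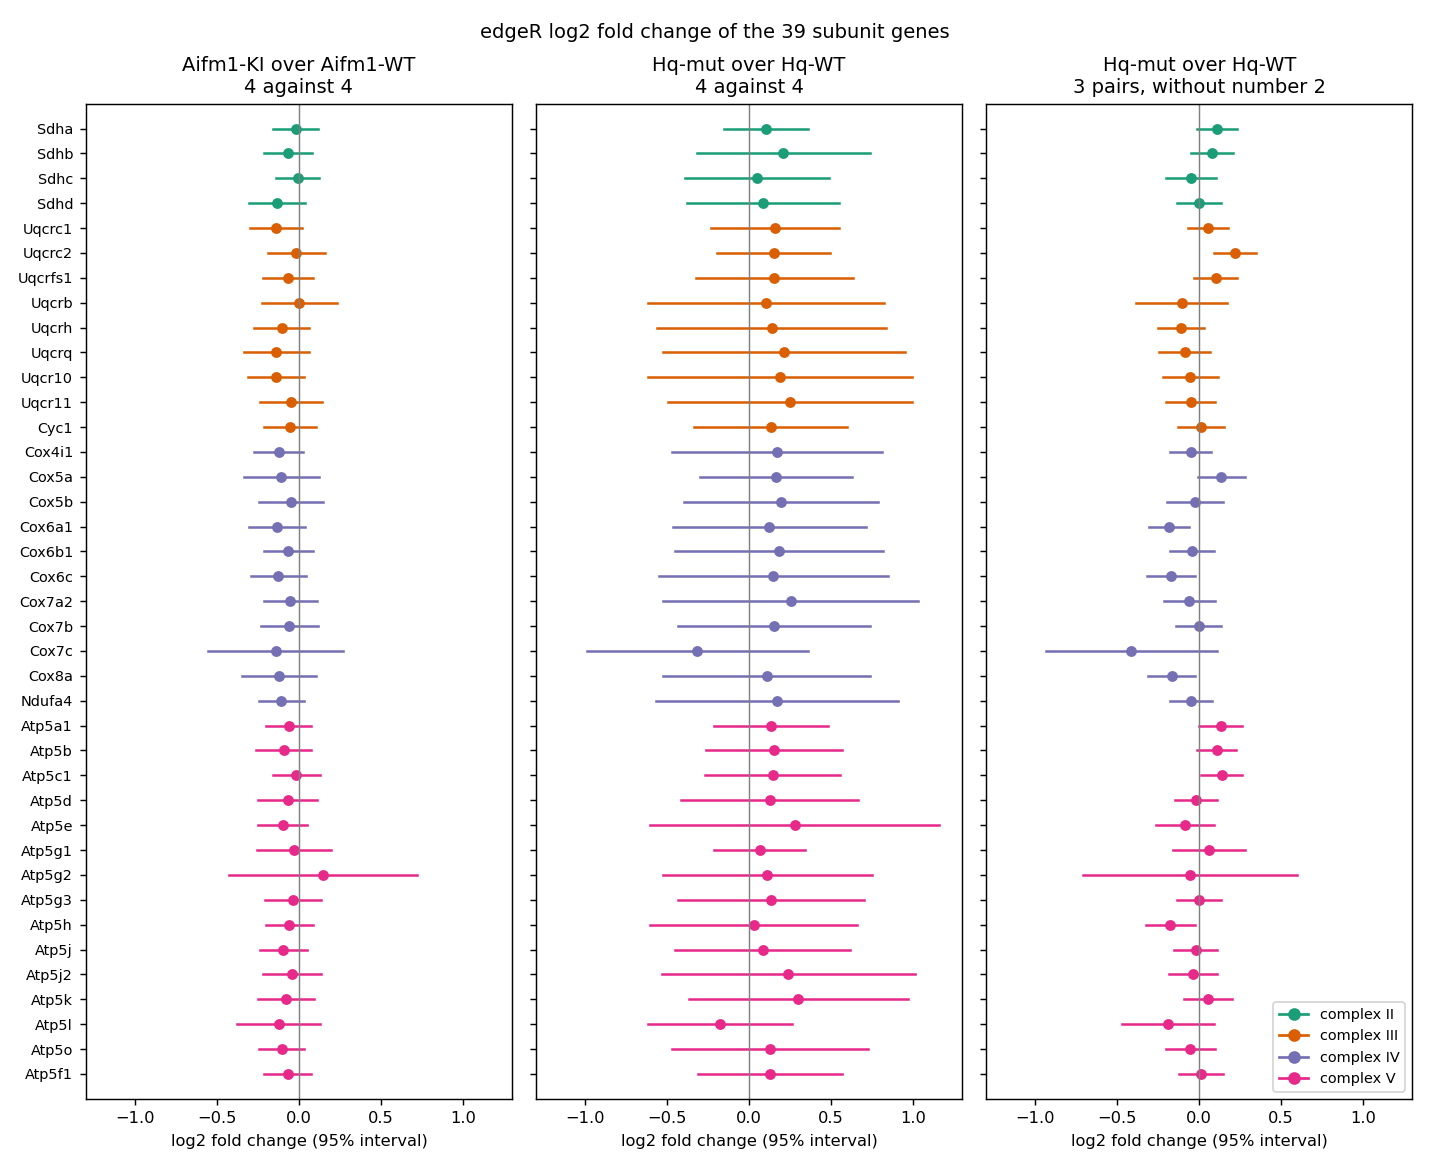
edgeR log2 fold change with its 95% interval (x axis) for each of the 39 genes (y axis), coloured by complex, for Aifm1-KI over Aifm1-WT, for Hq-mut over Hq-WT with all 8 libraries, and for Hq-mut over Hq-WT without the pair numbered 2. Intervals are wide in the middle panel (median SE 0.27) and narrow at the sides (0.07 and 0.06).

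The same question was asked of Harlequin, Hq-mut against Hq-WT. With all 8 libraries the subunit genes had a median log2 fold change of 0.14 (range -0.32 to 0.30), and 37 of 39 were positive, against 53.1% of all 17969 genes tested. No member passed, while 3 genes in all did (0.0167%), and 0 of 39 members had an unadjusted p under 0.05, against 2.14% of all genes. DESeq2 and limma-voom called 0 members and gave 0 with an unadjusted p under 0.05. The medians were 0.09, 0.15, 0.16 and 0.13 for complexes II, III, IV and V. Every gene's Hq-mut and Hq-WT libraries overlapped, while 0.857% of all genes had all Hq-mut libraries above Hq-WT and 0.724% all below.

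Same-numbered Hq libraries deviated together over all genes, with correlations from 0.41 to 0.53, so the replicate numbers were taken as pairs. With the replicate as a block the members' median was 0.10, no member passed (0.0167% of all genes did), and 1 of 39, Uqcrc2, had an unadjusted p under 0.05 (7.97% of all genes). The block narrowed the 95% intervals: they lay within 0.5 of 0 for 37 of 39 genes with it and for 5 without it.

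The positive median came with pair 2. Within it, Hq-mut 2 exceeded Hq-WT 2 for 37 of 39 genes, by a median of 0.45 on the log2 scale, against 55.1% of all genes. In pairs 1, 3 and 4 the medians were 0.03, 0.00 and -0.02, with 26, 20 and 16 of the 39 genes higher. Without pair 2, and with the block, the median over members was -0.04, with 13 positive and 26 negative values (50.2% of all genes were positive). By complex it was 0.04 for II, -0.05 for III, -0.05 for IV and -0.02 for V. The median was -0.19 when Hq-mut 2 alone was left out and 0.33 when Hq-WT 2 alone was. It was 0.32 with striatal markers as a covariate, which were highest in Hq-mut 3, and 0.24 without Hq-mut 3; the part of striatal tissue was not tested. The direction for Hq-mut thus differed with and without the libraries numbered 2.

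In pairs 1, 3 and 4, as a description of these 6 libraries, the sign of the difference varied between genes. Hq-mut was higher in all 3 pairs for 11 of 39 genes (28.2%), against 23.0% of all genes tested: Sdha, Sdhb, Sdhd, Uqcrc1, Uqcrc2, Uqcrfs1, Cox5a, Atp5a1, Atp5b, Atp5c1 and Atp5k. Hq-mut was lower in all 3 pairs for 7 (17.9%), against 16.4% of all genes: Uqcrh, Uqcrq, Cox6a1, Cox6c, Cox8a, Atp5h and Atp5l. Both shares are near those of all genes.

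mRNA length differed along with the sign. Of the 23 genes with an mRNA of up to 1000 bases, 2 had a positive log2 fold change without pair 2, and their median was -0.05. Of the 16 longer ones 11 were positive, and their median was 0.06. Among all tested genes of up to 1000 bases, 828 of 2035 were positive in the same fit, with a median of -0.05. Spearman's rho between length and log2 fold change was 0.62 over the 39 genes, which share the same 6 libraries. Among cytosolic ribosomal proteins 40 of 72 (55.6%) were lower in all 3 pairs. With the trend on transcript length removed from all 8 libraries, the members' median was 0.10, with 36 of 39 positive (9619 of 17969 genes). With the trend removed and the libraries numbered 2 left out, it was 0.01, with 21 of 39 positive. The difference by length remained there: 7 of 23 shorter and 14 of 16 longer genes were positive, and rho was 0.56. The part of length in the split was not tested as a cause.

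**Figure D4:**
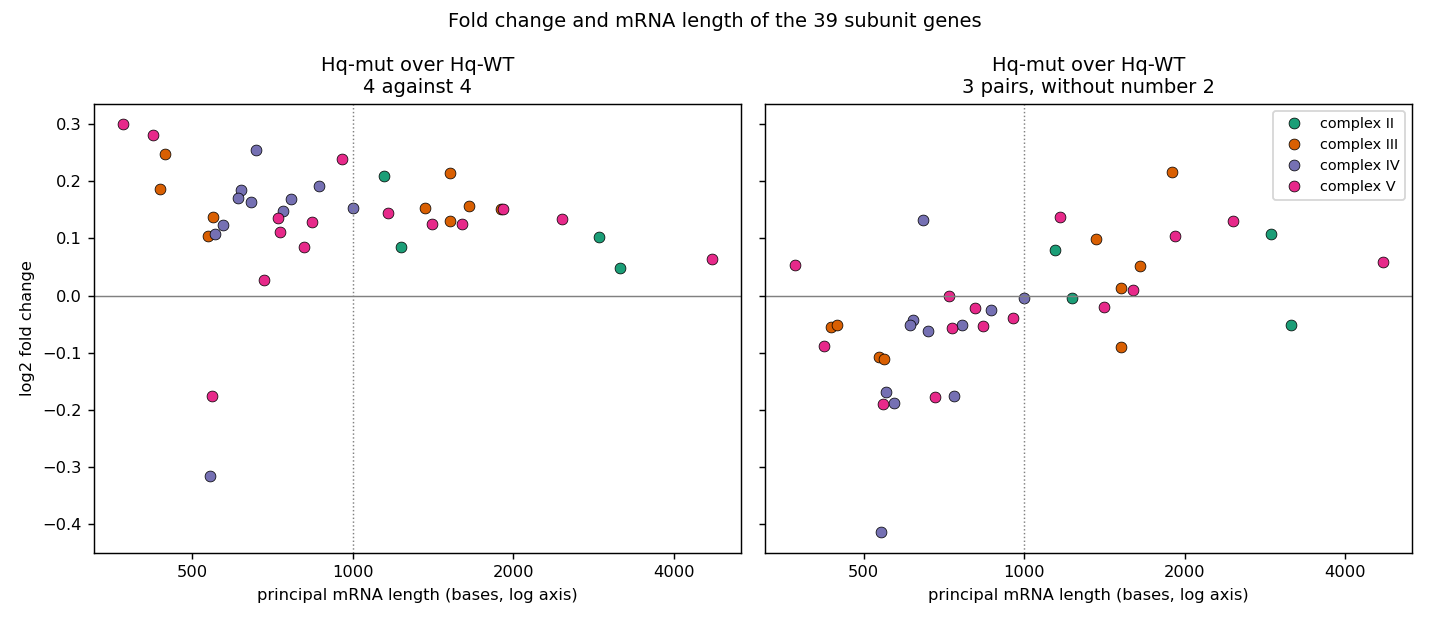
edgeR log2 fold change of Hq-mut over Hq-WT (y axis) against principal mRNA length in bases on a log axis (x axis) for the 39 genes, coloured by complex, with all 8 libraries at left and without the pair numbered 2 at right; the dotted line marks 1000 bases. At right, 2 of 23 genes left of the line and 11 of 16 right of it lie above 0.

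Without pair 2 the block fit gave 6 of 39 members an unadjusted p under 0.05 (15.4%), against 14.9% of all genes, and none passed (0.0221% of all genes did). Of these, 2 were positive (7.99% of all genes) and 4 negative (6.88%). The lowest edgeR adjusted p was 0.191, for Uqcrc2. Positive were Uqcrc2 (0.22, SE 0.06) and Atp5c1 (0.14, SE 0.05), and negative were Cox6a1 (-0.19, SE 0.05), Cox6c (-0.17, SE 0.06), Cox8a (-0.17, SE 0.06) and Atp5h (-0.18, SE 0.07). Apart from Uqcrc2 and Cox8a, these were chosen after their values were seen. Without the libraries numbered 2, Hq-mut and Hq-WT did not overlap for 11 genes: 6 were higher in all 3 Hq-mut libraries (6.29% of all genes were) and 5 lower (5.13%). Higher were Sdha, Uqcrc1, Cox5a, Atp5a1, Atp5b and Atp5c1, and lower were Uqcrh, Cox6a1, Cox6c, Cox8a and Atp5h.

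Sdha, the flavoprotein that oxidises succinate (ENSMUSG00000021577, chr13:74322254-74350280, minus strand), had 381.8, 466.6, 369.7 and 370.5 CPM in Hq-mut, against 359.9, 425.9, 326.2 and 343.0 CPM in Hq-WT. Hq-mut was higher in each of the 4 pairs, and only Hq-WT 2 exceeded any Hq-mut library. Its log2 value of 0.10 did not pass (SE 0.11, edgeR adjusted p = 1.0), and without pair 2 it was 0.11 (SE 0.05, edgeR adjusted p = 0.379).

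Uqcrc2, the other core protein of complex III (ENSMUSG00000030884, chr7:120635176-120659524, plus strand), had 150.9, 182.9, 134.6 and 136.4 CPM in Hq-mut, against 135.0, 176.8, 110.6 and 113.6 CPM in Hq-WT. All 4 pairs were again higher in Hq-mut, although the groups overlapped through Hq-WT 1 and 2. It reached 0.15 (SE 0.16, edgeR adjusted p = 1.0), 0.16 with the block (SE 0.07, edgeR adjusted p = 0.623) and 0.22 without pair 2 (SE 0.06, edgeR adjusted p = 0.191). Pdzd9 lies opposite 19.7% of its exon bases.

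Cox7c, a small subunit of complex IV (ENSMUSG00000017778, chr13:86044816-86046904, minus strand), had 1.46, 2.94, 2.03 and 1.94 CPM in Hq-mut, against 1.41, 2.98, 2.59 and 3.25 CPM in Hq-WT. Its spread among Hq-WT libraries covered all Hq-mut values, at -0.32 (SE 0.30, edgeR adjusted p = 1.0), and at -0.41 (SE 0.23, edgeR adjusted p = 0.44) without pair 2. It is 1 of the 5 genes with many windows in pseudogenes, as the coding window shown above illustrates.

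Atp5k, the small e subunit of complex V found where ATP synthases pair (ENSMUSG00000050856, chr5:108433244-108434448, minus strand), had 45.6, 107.8, 43.0 and 42.2 CPM in Hq-mut, against 42.5, 65.8, 40.6 and 41.3 CPM in Hq-WT. Each Hq-mut library lay above its own partner, and both libraries numbered 2 were far above the rest. A log2 value of 0.30 (SE 0.30, edgeR adjusted p = 1.0) became 0.05 (SE 0.06, edgeR adjusted p = 0.732) without pair 2.

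Cox8a (ENSMUSG00000035885, chr19:7215153-7217616, minus strand), the gene with the highest level, had 139.0, 336.2, 138.9 and 140.2 CPM in Hq-mut, against 146.2, 222.8, 149.7 and 168.9 CPM in Hq-WT. Of the 4 pairs only pair 2 was higher in Hq-mut. On the log2 scale it was at 0.11 (SE 0.28, edgeR adjusted p = 1.0) with all libraries and -0.17 (SE 0.06, edgeR adjusted p = 0.284) without pair 2. In Aifm1-KI it had 114.5, 108.2, 148.4 and 137.6 CPM, against 144.0, 135.7, 128.4 and 150.0 CPM in Aifm1-WT, with overlapping libraries.

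Atp5g2, a gene for the c-ring protein of complex V (ENSMUSG00000062683, chr15:102662864-102672352, minus strand), was near 1 CPM throughout. It had 0.951, 0.876, 0.922 and 0.960 CPM in Aifm1-KI, against 0.713, 1.25, 0.546 and 0.801 CPM in Aifm1-WT. Hq-mut had 0.942, 0.914, 0.630 and 0.929 CPM, against 0.925, 0.514, 0.740 and 0.923 CPM in Hq-WT. A count of 0 would allow up to 0.277 CPM in the shallowest library, taking 3 counts as the limit, and all values of Atp5g2 lie above that. No difference was detected: the 95% interval in Aifm1-KI ran from -0.42 to 0.72 on the log2 scale.

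**Figure D5:**
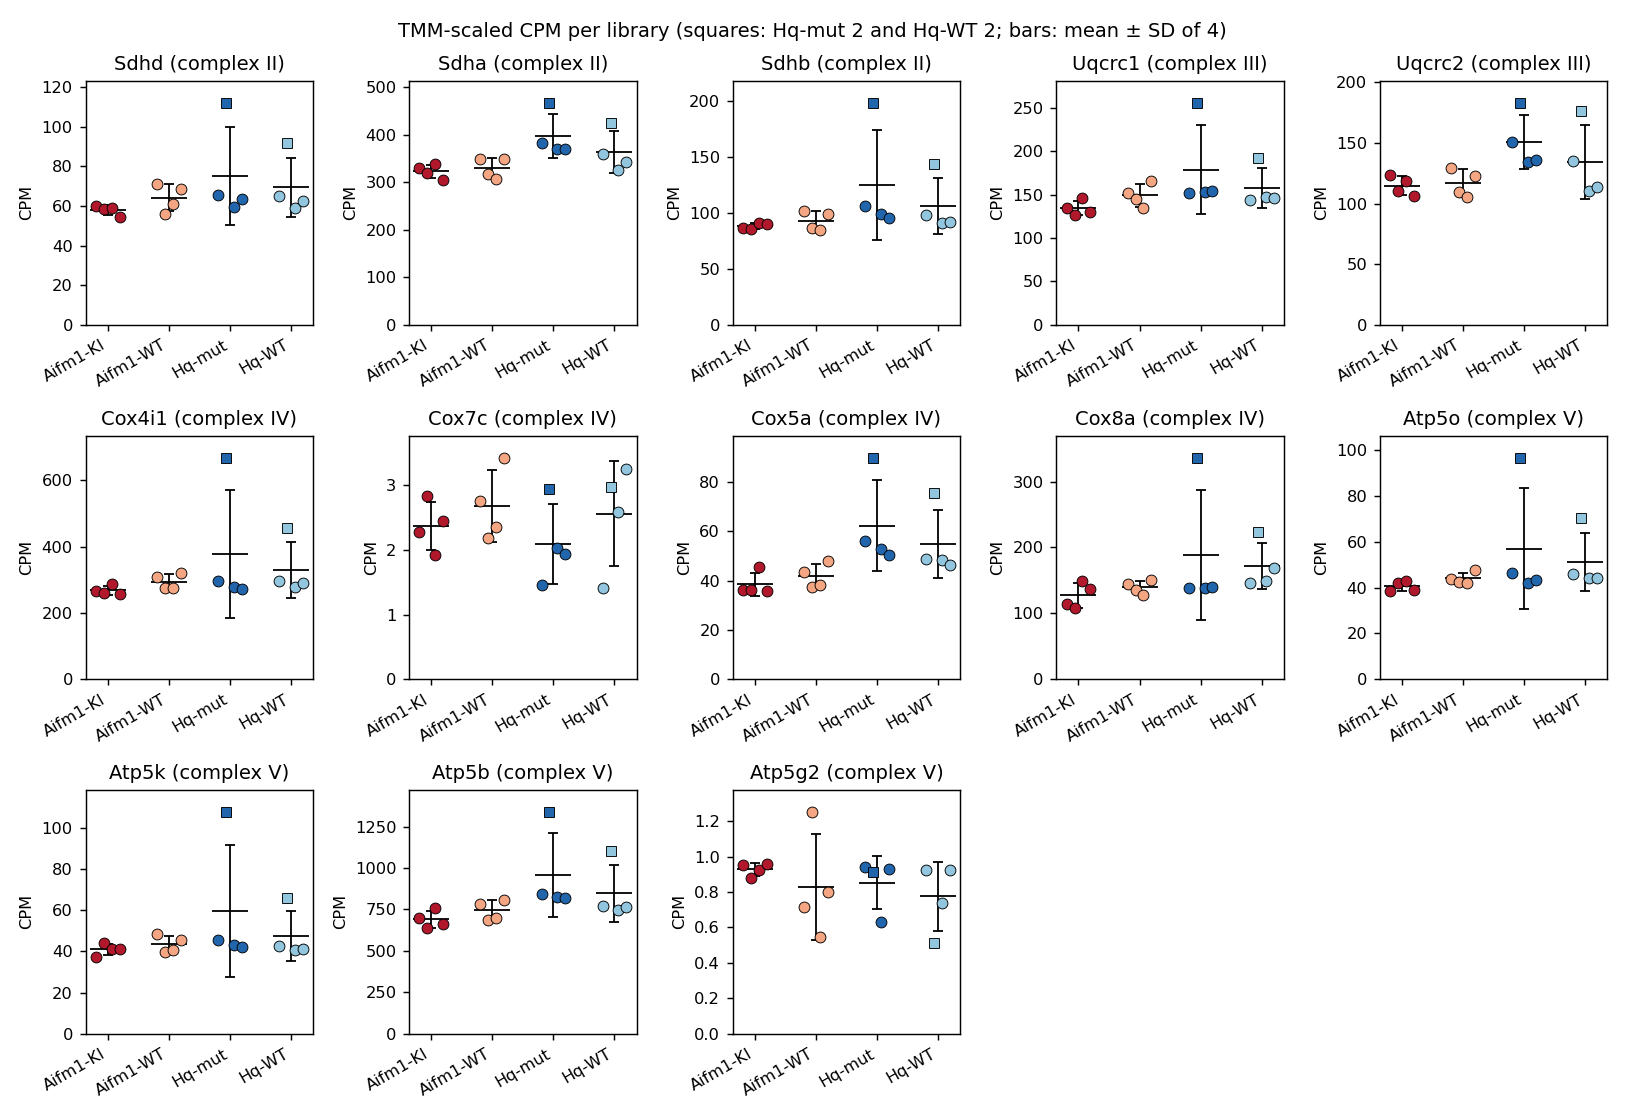
TMM-scaled CPM (y axis, from 0) of 13 subunit genes in each library of the 4 groups (x axis); points are libraries, squares are Hq-mut 2 and Hq-WT 2, and bars are the mean ± SD of 4. For most genes the circles of the groups overlap, as for Cox4i1 at 258 to 321 CPM, and Hq-mut 2 stands alone, at 668 CPM.

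The difference of the mutants' effects, Hq-mut over Hq-WT minus Aifm1-KI over Aifm1-WT, was tested over all 16 libraries. It had a median of 0.22 over the members, and 36 of 39 were positive, against 50% of all 19129 genes. No member passed (2 genes in all did, 0.0105%), and 0 of 39 had an unadjusted p under 0.05 (5.08% of all genes). The medians were 0.17, 0.24, 0.25 and 0.19 for complexes II to V. Without Hq-mut 2 and Hq-WT 2 the median was 0.05, with 27 of 39 positive (48.7% of all genes), and by complex it was 0.13, 0.07, 0.02 and 0.05. With the replicate number as a block in both lines the median was 0.17. In that fit 2 members, Uqcrc1 and Atp5b, had an unadjusted p under 0.05 (lowest edgeR adjusted p 0.454). Of all genes 10.9% had one, or 5.15% in the positive direction. The block there also pairs the Aifm1 libraries, whose same-numbered deviations correlated at only -0.03 to 0.10.

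Sdhb, the iron-sulfur subunit of complex II (ENSMUSG00000009863, chr4:140961203-140979193, plus strand), had 86.3, 85.1, 91.2 and 89.7 CPM in Aifm1-KI, against 101.7, 86.6, 84.7 and 98.8 CPM in Aifm1-WT. Hq-mut had 106.2, 197.8, 98.7 and 95.5 CPM, against 97.8, 143.1, 91.2 and 91.4 CPM in Hq-WT. The log2 difference of effects was 0.27 (SE 0.27, edgeR adjusted p = 0.96), or 0.15 (SE 0.10, edgeR adjusted p = 0.729) without the libraries numbered 2.

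Uqcrc1 had 152.3, 255.3, 153.0 and 154.5 CPM in Hq-mut, against 144.3, 192.5, 147.7 and 146.5 CPM in Hq-WT. Outside pair 2 the Hq-mut libraries lay just above those of Hq-WT, while Aifm1-KI 2 and 4 lay below all of Aifm1-WT. Its difference of effects was 0.29 (SE 0.20, edgeR adjusted p = 0.952), and 0.19 (SE 0.10, edgeR adjusted p = 0.675) without the libraries numbered 2.

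Cox5a, a matrix-facing subunit of complex IV (ENSMUSG00000000088, chr9:57521274-57532426, plus strand), had 36.2, 36.4, 45.6 and 35.7 CPM in Aifm1-KI, against 43.4, 37.5, 38.1 and 48.0 CPM in Aifm1-WT. Its levels were 56.0, 89.9, 52.9 and 50.5 CPM in Hq-mut, against 49.0, 75.4, 48.3 and 46.3 CPM in Hq-WT. Aifm1-WT 4, at 48.0 CPM, lay above Hq-WT 4, at 46.3 CPM, so the wild types of the lines overlapped. Stock and mutation cannot be told apart where Hq-mut is set against Aifm1-KI. Gm26631 shares 12.8% of the exon bases of Cox5a. The difference of effects was 0.27 (SE 0.25, edgeR adjusted p = 0.96), and 0.24 (SE 0.14, edgeR adjusted p = 0.684) without the libraries numbered 2.

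Atp5b, the catalytic beta chain (ENSMUSG00000025393, chr10:128083273-128090391, plus strand), had 699.8, 640.5, 756.4 and 664.7 CPM in Aifm1-KI, against 780.6, 685.2, 700.8 and 808.4 CPM in Aifm1-WT. It had 843.2, 1337, 823.6 and 818.7 CPM in Hq-mut, against 771.6, 1103, 746.4 and 764.7 CPM in Hq-WT. Hq-mut was higher in each pair and, outside pair 2, above all Hq-WT libraries. The difference of effects was 0.24 (SE 0.21, edgeR adjusted p = 0.96), and 0.20 (SE 0.10, edgeR adjusted p = 0.675) without the libraries numbered 2.

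The wild types of the lines were also set against each other, Hq-WT over Aifm1-WT; stock and any handling of the lines cannot be told apart there. The median over members was 0.19, with 36 of 39 positive (51% of all genes), and 0.05, with 26 of 39 positive (49.9% of all genes), without Hq-WT 2. No member passed, while 101 genes in all did (0.558%), and DESeq2 and limma-voom also called 0 members. At an unadjusted p under 0.05 there were 5 of 39, all positive, against 12.7% of all genes: Cox5a (0.38, SE 0.15), Sdhc (0.31, SE 0.11), Cox8a (0.29, SE 0.12), Atp5f1 (0.29, SE 0.11) and Cox6a1 (0.27, SE 0.10). In the positive direction alone the share of all genes was 5%. Without Hq-WT 2 the values were 0.21 (SE 0.09) for Cox5a, 0.19 (SE 0.08) for Sdhc, 0.17 (SE 0.08) for Cox8a, 0.18 (SE 0.07) for Atp5f1 and 0.19 (SE 0.08) for Cox6a1. All but Cox8a kept an unadjusted p under 0.05 there (4 of 39, against 7.28% of all genes in that direction), with edgeR adjusted p from 0.276 to 0.309. Sdhc, Atp5f1 and Cox6a1 were chosen after their values were seen. Sdhc, the other membrane anchor of complex II, and Cox6a1 had every Hq-WT library above every Aifm1-WT library, which 2.69% of all genes had, and this held without Hq-WT 2 (5.2% of all genes). No member had every Hq-WT library below, against 4.59% of all genes, or 7.68% without Hq-WT 2. With Hq-WT 2 kept and the length trend removed, the median over members was 0.16, with 35 of 39 positive (9638 of 18106 genes).

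Sdhc had 73.6, 104.4, 82.6 and 70.4 CPM in Hq-WT, against 68.5, 65.1, 62.5 and 70.4 CPM in Aifm1-WT. The lowest Hq-WT and the highest Aifm1-WT library were almost level. Cox6a1 had 151.2, 199.9, 157.1 and 158.4 CPM in Hq-WT, against 150.0, 131.2, 124.2 and 146.2 CPM in Aifm1-WT.

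The spread of the subunit genes across libraries was taken with and without the 2 libraries. They were set aside because these same genes stood high in them, so a smaller spread without them follows from that choice. The median coefficient of variation over the 39 genes was 28.7% in 16 libraries and 7.60% in 14, against 19.4% and 15.6% over 19129 genes. Those 19129 genes were not matched to the members by level, so low variation is not shown to be particular to the subunits. Cox7c (25.3%), Atp5g2 (19.9%), Cox5a (15.1%), Uqcrc2 (11.3%) and Cox8a (10.9%) varied most over the 14 libraries; Cox7c and Atp5g2 have the lowest counts of these.

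Genes that act with these subunits were taken from lists of the pathway, and none passed in either mutant comparison or in the difference of effects. Of the assembly factors tested, 4 for complex II, 6 for complex III, 19 for complex IV and 3 for complex V, the medians in Aifm1-KI were -0.05, -0.05, -0.06 and -0.06. In Hq-mut they were 0.16, 0.05, 0.08 and 0.06 with all libraries, and 0.06, 0.01, 0.02 and 0.02 without pair 2. An unadjusted p under 0.05 in Aifm1-KI was seen for 2 of 6 factors of complex III, 2 of 19 of complex IV and 1 of 3 of complex V, against the 11.4% of all genes given above. The genes with the smallest p of these lists are Uqcc2 (-0.20, SE 0.07, edgeR adjusted p = 0.38), needed for complex III assembly, Cox17 (-0.19, SE 0.07, edgeR adjusted p = 0.401), the copper chaperone of complex IV, and Atpaf1 (-0.19, SE 0.07, edgeR adjusted p = 0.395), a chaperone of the ATP synthase beta chain.

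Complex I subunits, of which 36 were tested, resembled the other complexes in their values. Their median was -0.04 in Aifm1-KI, with 30 of 36 negative, where Ndufs6 had the smallest p (-0.19, SE 0.08, edgeR adjusted p = 0.426). In Hq-mut it was 0.13, with 35 of 36 positive, and -0.04, with 11 of 36 positive, without pair 2. Cycs, the cytochrome c that carries electrons from complex III to IV, was at -0.11 (SE 0.07, edgeR adjusted p = 0.56) in Aifm1-KI and at -0.12 (SE 0.16, edgeR adjusted p = 1.0) in Hq-mut, or -0.22 (SE 0.09, edgeR adjusted p = 0.328) without pair 2. Among 13 transcription factors and coactivators of respiratory genes, medians were -0.02 in Aifm1-KI and 0.00 in Hq-mut, with pair 2 or without it; the smallest p was that of Esrrg in Aifm1-KI (-0.35, SE 0.19, edgeR adjusted p = 0.501) and of Gabpb1 in Hq-mut (-0.22, SE 0.11, edgeR adjusted p = 1.0). Gabpb1 was at -0.17 (SE 0.08, edgeR adjusted p = 0.382) without pair 2.

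Of the subunits of complexes III to V encoded in mitochondrial DNA, mt-Co1 and mt-Cytb were counted at high levels. By contrast, mt-Co2, mt-Atp6 and mt-Atp8 had 0 counts in all 16 libraries and could not be assessed. Nor could mt-Co3, at a mean of 0.013 CPM in Aifm1-KI, 0.010 CPM in Aifm1-WT and 0 in Hq-mut and Hq-WT. mt-Cytb averaged 7530 ± 858 CPM in Aifm1-KI and 7273 ± 431 CPM in Aifm1-WT, and 8268 ± 1041 CPM in Hq-mut and 8522 ± 868 CPM in Hq-WT (SD, n = 4 each). Its log2 fold changes were 0.06 (SE 0.09, edgeR adjusted p = 0.812) in Aifm1-KI and -0.07 (SE 0.13, edgeR adjusted p = 1.0) in Hq-mut, or -0.09 (SE 0.09, edgeR adjusted p = 0.704) without pair 2. mt-Co1 averaged 6442 ± 618 CPM in Aifm1-KI, 6509 ± 335 CPM in Aifm1-WT, 8167 ± 1530 CPM in Hq-mut and 8018 ± 800 CPM in Hq-WT. In Hq-WT over Aifm1-WT these 2 genes had a median of 0.26, both positive with an unadjusted edgeR p under 0.05, and none passed. Of all genes 12.7% had such a p, or 5% in the positive direction. Summed CPM of the mitochondrially encoded genes was 14450, 18310, 17290 and 16110 in Hq-WT libraries 1 to 4. In Aifm1-WT it was 14710, 14080, 13100 and 13240. No fit of these genes without Hq-WT 2 is given here.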

How the data were processed

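Poly(A) RNA of 16 cerebral cortex samples was sequenced as single 51-base reads, per the labels' protocols, and reads were trimmed, aligned to mm10 with STAR 2.6 and counted per gene with HTSeq, per the submitters' processing notes and the design text. For HTSeq's version, strand setting and annotation release, the value is not given in the sources used here. Raw counts per gene, as the authors made them, fill the deposited table, with 0 columns of no sample and 0 rows without a gene ID; symbols and positions came from GENCODE M21 for 55480 of 55573 IDs. Atp5o maps to 2 IDs, and the second has 0 counts.

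Comparisons used edgeR 4.0.16 in R 4.3.3 (TMM factors, filterByExpr by group, quasi-likelihood F-test, Benjamini-Hochberg adjustment over all genes tested, called under 0.05). limma 3.58.1 and DESeq2 1.42.0 served as alternatives. Standard errors were taken as the absolute log2 fold change over the root of F. Log2 CPM used a prior count of 2. TPM was computed from union exon length. Tables were made with Python 3.11.15, pandas 2.3.3 and scipy 1.17.1. The unblocked fits of both mutant comparisons were run on simulated counts with 200 changed genes. Those counts held no pairs, no deviant libraries and no length trend, so they do not check the other fits. Totals of 10671580 to 32551594 counts put the limit of a count of 0 (3 counts) at 0.0876 to 0.277 CPM, for counting error only.

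Same-numbered Hq libraries correlated in their deviations from the group means (0.41 to 0.53 in 4 of 4 pairs), which is where the pairing comes from. Values in every library are given for the gene of each complex with the smallest p in each mutant comparison and in the difference of effects, and for the genes with the highest and lowest TPM. The members and lists were chosen with earlier results of these data known. Leaving out the libraries numbered 2 without the block, removing the length trend (lowess span 0.3) and TPM by transcript length were chosen after seeing the data.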

Additional observations from a re-analysis of the deposited data

Results flagged for a closer look

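The values reported per library, 18 in each of the 4 groups, gave 72 sets of 4 values. These sets share the same libraries, and the means contain genes also examined, so they are not independent. In 31 of the 72, 1 library lay far from the other 3 by Dixon's criterion. Chance meets this criterion in about 1 of 20 for a single set, a rate that does not test the number of flags. Hq-mut 2 accounted for 15 of the 31 and Hq-WT 2 for 12. Over the 39 genes, Hq-mut 2 was a high outlier in 34 and Hq-WT 2 in 25.

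The mean log2 CPM over all members was 6.95 in Hq-mut 2 and 6.53 in Hq-WT 2. By complex it was 7.58 and 7.28 (II), 7.05 and 6.60 (III), 7.12 and 6.61 (IV), and 6.61 and 6.22 (V) in these libraries.

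The genes concerned in both libraries were Sdhb (197.8 CPM in Hq-mut 2 and 143.1 CPM in Hq-WT 2), Uqcrc1 (255.3 and 192.5 CPM), Cox4i1 (668.4 and 457.2 CPM), Cox5a (89.9 and 75.4 CPM), Atp5o (96.9 and 70.3 CPM), Atp5k (107.8 and 65.8 CPM) and Atp5b (1337 and 1103 CPM). In Hq-mut 2 alone they were Sdha (466.6 CPM), Sdhd (111.9 CPM) and Cox8a (336.2 CPM). Aifm1-KI 3 stood high in its group, at a mean log2 CPM of 5.95 over all members, 5.94 over complex III, and 45.6 CPM for Cox5a. Atp5g2 was low in Hq-mut 3, at 0.630 CPM.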

How the results depend on the processing

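No member passed in any alternative. Of 766 alternative values for 36 results, 744 did not change sign and 22 did, and all 22 leave out Hq-mut 2. Of these, 12 leave it out alone, 4 leave out pair 2 with the block, 4 without it, and 2 also remove the length trend. The 744 include the number of members called in each comparison, which was 0 in every fit and has no sign to change. The results draw on the same libraries, so the 766 values are not independent. Without pair 2 and with the block, the Hq-mut medians were -0.04 over all members, -0.05 for complexes III and IV and -0.02 for complex V. Leaving out 1 library at a time, the members' median for the difference of effects ran from -0.13 to 0.38, with -0.02 to 0.28 for complex II, -0.15 to 0.40 for complex III, -0.15 to 0.42 for complex IV and -0.062 to 0.36 for complex V. Atp5k in Hq-mut ran from -0.14 to 0.50, and the difference of effects for Sdhb from -0.022 to 0.44. The median in Hq-mut ran from -0.19 to 0.33 (II -0.12 to 0.22, III -0.26 to 0.35, IV -0.28 to 0.36, V -0.14 to 0.31), in Aifm1-KI from -0.11 to -0.04, and in Hq-WT over Aifm1-WT from 0.05 to 0.26. With the replicate block the Hq-mut median was 0.10, and the block changed no call. Same-numbered Aifm1 libraries correlated at -0.03 to 0.10 and were not taken as pairs outside the block fits. The block left the Aifm1-KI median at -0.07. With the striatal covariate the Hq-mut median was 0.32. DESeq2 called 82 genes in Aifm1-KI where edgeR called 0, and 421 in Hq-WT over Aifm1-WT where edgeR called 101. With all 8 Harlequin libraries, 5 of 39 intervals lay within 0.5 of 0, and 37 with the block.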
